A study of Mus musculus with 8 samples.

Results

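Hedgehog signalling was read through 9 genes: the ligands Shh and Ihh, the receptor Ptch1, the co-receptors Boc, Cdon and Gas1, the signal transducer Smo, and the inhibitors Hhip and Sufu. Members were taken by name, as every non-control probe whose gene name in the array files is one of the 9, which gave 18 of 41174 distinct probes (9 of 27962 gene names). The samples were whole pancreas of C57BL/6 mice aged 1 week, 4 wildtype (WT) and 4 Glis3KO2. Glis3KO2 is a line that the labels give as a genotype without stating which part of Glis3 is deleted, in which cells, or whether pups of a group shared a litter. No other allele or treatment is given for either group, and all pups stayed with their own mothers. Each sample was 1 single-colour array, so the number of arrays limits the precision, and where pups share a source the p-values reflect only how far these samples spread.

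Hedgehog ligands are secreted proteins that bind Ptch1. Without ligand Ptch1 holds Smo inactive, and with ligand Smo is released and the Gli zinc finger factors activate transcription, also of Ptch1, Hhip and Gli1 themselves. Sufu retains Gli proteins in the cytoplasm, and Hhip binds ligand at the cell surface. Vertebrate Hedgehog signalling runs through the primary cilium. In the mouse embryo Shh is kept out of the pancreatic bud, and forced Hedgehog activity disturbs pancreas formation. Glis3 is a zinc finger factor related to the Gli proteins.

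No member probe differed between the genotypes past the threshold. The test took probes that were well above background on 4 or more of the 8 arrays, which 13 of the 18 were. They cover 8 of the 9 genes, all but Shh. Of these 13, 0 had an adjusted p below 0.05 (limma, Benjamini-Hochberg over all 33239 tested probes), where 0.256% of all tested probes did. Their adjusted p ranged from 0.539 to 0.964. At an unadjusted limma p below 0.05 stood 2 of the 13, against 8.97% of all tested probes in either direction. They were the brightest probes of Boc and Smo, both higher in Glis3KO2, as were 3.1% of all tested probes at that level. Under the alternatives tried, 0 to 3 member probes stood at that unadjusted level.

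Most of the small differences were positive. Of the 13 tested probes 11 had a higher mean in Glis3KO2. Sufu A_51_P396550 is among the 11, and it reached the filter with 1 WT and 3 Glis3KO2 arrays. Of the 12 probes well above background on all 8 arrays 10 were positive. Over the brightest tested probe of each of the 8 genes the median log2 difference was 0.24, with 7 of the 8 positive, against a median of -0.01 over all tested probes, of which 48.0% were positive. Ptch1 is among the 7 by the brighter of its probes, while its other probe was negative. With the mean of all tested probes of each gene the median was 0.20. The signs do not all stand under another background correction. With normexp, 7 of the 13 probes were positive and the median was 0.13. Its offset shrinks differences of dim probes by construction, and what turned the signs was not tested. Of the intervals, 12 of 13 lay within a 2-fold difference in either direction, as did those of 30088 of all 33239 tested probes. Each genotype had a slide of its own, with 4 arrays, so a slide effect and a genotype effect cannot be told apart in any of these values. The 10 spike-in probes, which carry no mouse RNA, had a median log2 difference of -0.28 on the same scale.

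**Figure D1:**
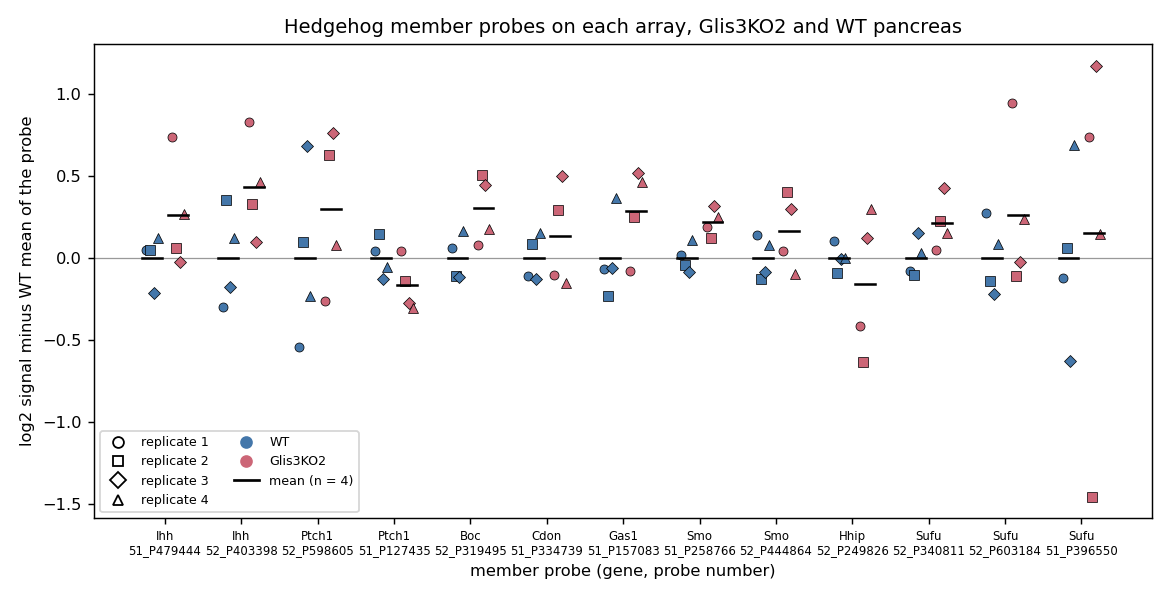
Log2 signal of the 13 tested member probes on each array, minus the WT mean of the probe (y axis), by gene and probe number (x axis). Blue symbols are WT and red symbols Glis3KO2, the shape gives the replicate number, and black bars are means of 4 arrays. Only the brightest Smo probe has every Glis3KO2 array above every WT array.

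Genes with several probes were read at different places. The first 30 of the 60 bases are shown here for 8 probes whose values are given below. Bases are in the order of the array files, with G and C in capitals.
Ptch1 A_51_P127435: GGGGtatttGaGGatCCtCatGtGCCtttt
Ptch1 A_52_P598605: CatttGGatGttttaatttGtaaaaGaaaa
Ihh A_51_P479444: GCGattCttCaCaCGCattCCatCtGtCtt
Ihh A_52_P403398: GCtaGGGGCCaGaGtGtGtCtaGaCatCaG
Smo A_51_P258766: aatGtCtaGtCattttCataGtGCCCCaCa
Smo A_52_P444864: GtGGGaGGCtaCttCCtCatCaCaGGGGtC
Hhip A_52_P249826: atGaCGtCttaCttGCtGGatCtCaCaaGt
Boc A_52_P319495: tGCtGtttaGGtCttGtaCCaGttGaaGaa

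The Ptch1 pair differ in base composition, with G or C at 30 of the 60 bases of A_51_P127435 and at 13 of the 60 of A_52_P598605. The Ptch1 probes lie at chr13:61333864-61333923 and chr13:61331255-61331314, the Ihh probes at chr1:75185454-75185513 and chr1:75187527-75187586, the Hhip probe at chr8:78511903-78511962 and the Boc probe at chr16:44263258-44263317 (build mm7 of the array design, minus strand). Smo A_51_P258766 lies at chr6:29693371-29693430 on the plus strand. The 60 bases of Smo A_52_P444864 span 1234 bases of genome, chr6:29687728-29688961, so this probe crosses a gap in the alignment. Exon annotation of that build was not used here.

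Among the ligands, Shh could not be measured. It has 1 probe, printed 10 times on each array, and the probe was well above background on 0 of 8 arrays. Between 0 and 1 of its 10 spots per array were above background, and its mean processed signal was between 1.71 and 3.08, where the 75th percentile of an array was between 460.4 and 694.1. No genotype difference in Shh was detectable at this signal.

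Ihh, the other ligand, was dim but above background on all 8 arrays by both probes. A_51_P479444, also printed 10 times, had log2 signals relative to the array's 75th percentile of -4.92, -4.92, -5.18 and -4.85 on WT replicates 1 to 4 and of -4.23, -4.91, -4.99 and -4.70 on Glis3KO2 replicates 1 to 4. Glis3KO2 replicate 1 was the highest array and the other three lay near the WT arrays, so the groups overlapped. The log2 difference was 0.26 (SE 0.17, 95% interval -0.13 to 0.65, limma adjusted p = 0.709), and 0.10 without Glis3KO2 replicate 1.

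The second Ihh probe, A_52_P403398, gave -5.50, -4.85, -5.38 and -5.08 on the WT arrays and -4.37, -4.87, -5.10 and -4.73 on the Glis3KO2 arrays. Again Glis3KO2 replicate 1 was highest, and the groups overlapped. Its log2 difference of 0.43 was the largest of any tested member probe (SE 0.19, 95% interval -0.002 to 0.86, limma adjusted p = 0.558). With normexp background both Ihh probes had differences near 0, at -0.04 and -0.04. Its offset shrinks differences of dim probes by construction, and what turned the signs was not tested. Under the other alternatives both stayed positive. With quantile normalization their unadjusted limma p were 0.041 and 0.013 (limma adjusted p = 0.488 and 0.363). As both intervals above hold 0, no direction is given for Ihh.

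Ptch1 is both the Hedgehog receptor and a transcriptional target of the pathway, and its probes gave opposite signs. A_51_P127435, printed 10 times, read -3.82, -3.72, -3.99 and -3.92 on the WT arrays and -3.82, -4.00, -4.14 and -4.17 on the Glis3KO2 arrays. Glis3KO2 replicates 2, 3 and 4 were below every WT array and replicate 1 lay among them. The log2 difference was -0.17 (SE 0.12, 95% interval -0.43 to 0.09, limma adjusted p = 0.723).

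The A- and T-rich Ptch1 probe A_52_P598605, a single spot, spread more widely, with -4.49, -3.85, -3.26 and -4.18 on WT and -4.21, -3.32, -3.18 and -3.87 on Glis3KO2 arrays. Both groups covered nearly the same range, while each Glis3KO2 array was above the WT array of the same number. Its log2 difference was 0.30 (SE 0.30, 95% interval -0.38 to 0.98, limma adjusted p = 0.824), an interval that holds the value of the first probe. Leaving out 1 array moved it by more than 1.5-fold for 5 arrays: to 0.12 without WT replicate 1, 0.53 without WT replicate 3, and 0.49, 0.19 and 0.15 without Glis3KO2 replicates 1, 2 and 3.

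Repeat spots show how much of this spread arises within an array. For the Ptch1 probe with 10 spots the SD between spots of an array had a median of 0.18, or 0.06 for the mean of the 10, while the SD between arrays was 0.12 in WT and 0.16 in Glis3KO2. For Ihh the SD between spots was larger, with a median of 0.37, or 0.12 for the mean, beside 0.15 between WT arrays and 0.34 between Glis3KO2 arrays. The SD between Ptch1 arrays was thus larger than that of a mean of 10 spots in both groups, and for Ihh this held in Glis3KO2, while in WT the 2 values were close.

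**Figure D2:**
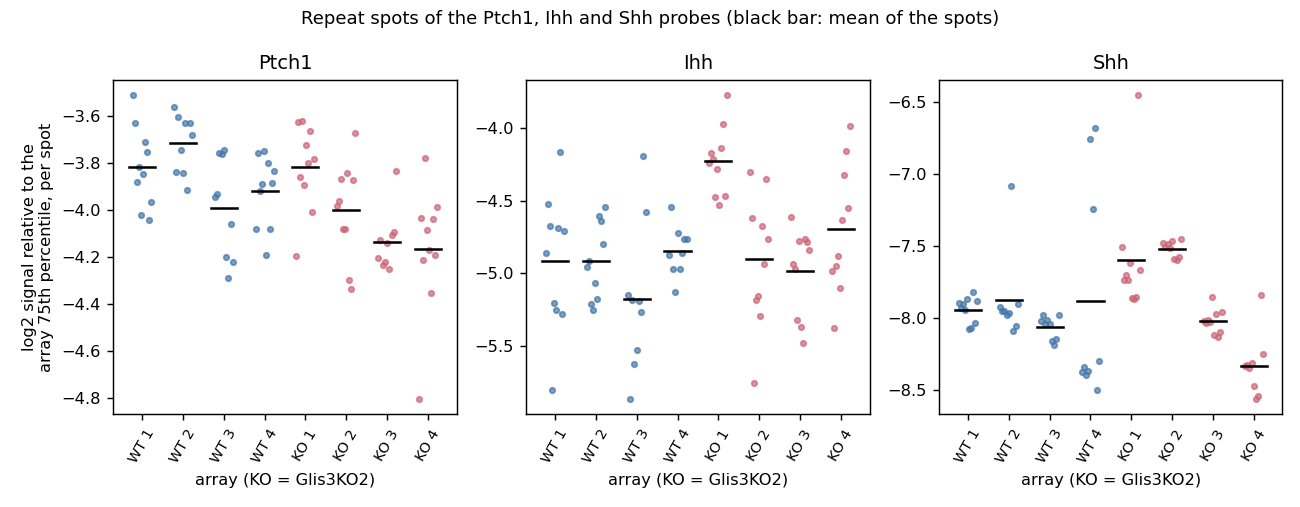
Log2 signal of each of the repeat spots (y axis, relative to the array's 75th percentile) of the Ptch1 probe A_51_P127435, the Ihh probe A_51_P479444 and the Shh probe on each array (x axis), with WT in blue and Glis3KO2 in red. Black bars are the means of the spots left after outlier spots were removed. The Ptch1 means fall within -4.17 to -3.72, and the Shh spots are at background.

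The co-receptors Boc, Cdon and Gas1 are cell surface proteins that bind ligand together with Ptch1. Boc A_52_P319495 read -0.12, -0.29, -0.30 and -0.02 on the WT arrays and -0.10, 0.32, 0.26 and -0.01 on the Glis3KO2 arrays. Glis3KO2 replicates 2, 3 and 4 exceeded every WT array, replicate 4 only narrowly. The log2 difference of 0.30 (SE 0.13, 95% interval 0.01 to 0.59, unadjusted p = 0.0440) was not past the threshold (limma adjusted p = 0.539). A further pair of Boc probes was well above background on 1 and 2 of the 8 arrays and was not tested.

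Gas1 read 0.76, 0.59, 0.76 and 1.19 on WT and 0.74, 1.08, 1.34 and 1.29 on Glis3KO2 arrays. Glis3KO2 replicates 3 and 4 exceeded every WT array, and replicate 1 was within the WT range. Its log2 difference was 0.29 (SE 0.17, 95% interval -0.10 to 0.68, limma adjusted p = 0.685), and without Glis3KO2 replicates 3 and 4 it was 0.09.

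Cdon read -2.76, -2.57, -2.78 and -2.50 on WT arrays and -2.76, -2.36, -2.16 and -2.80 on Glis3KO2 arrays. Glis3KO2 replicates 2 and 3 were the highest arrays and replicate 4 the lowest. The log2 difference was 0.13 (SE 0.16, 95% interval -0.23 to 0.50, limma adjusted p = 0.866). It depended on each Glis3KO2 array, at 0.21, 0.08, 0.01 and 0.23 without replicates 1 to 4.

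Smo, the membrane protein that passes the signal to Gli factors, was the member whose groups separated. Its brightest probe, A_51_P258766, read 3.50, 3.44, 3.40 and 3.60 on WT and 3.68, 3.61, 3.80 and 3.74 on Glis3KO2 arrays. Every Glis3KO2 array was above every WT array, with Glis3KO2 replicate 2 only just above WT replicate 4. The mean was 3.48 ± 0.08 in WT and 3.71 ± 0.08 in Glis3KO2 (SD, n = 4 arrays each).

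That is a 1.17-fold difference, with a 95% interval of 1.00-fold to 1.35-fold (log2 difference 0.22, SE 0.10). It was not past the threshold (limma adjusted p = 0.543, unadjusted p = 0.0450). Among all tested probes 1.86% had groups that separated in this direction, and of the 13 member probes 1 did. The Smo probe that crosses an alignment gap, A_52_P444864, read -3.77, -4.04, -4.00 and -3.83 on WT and -3.87, -3.51, -3.61 and -4.01 on Glis3KO2 arrays, which overlapped. Its log2 difference was 0.16 (SE 0.14, limma adjusted p = 0.777), -0.02 with normexp background, 0.08 without Glis3KO2 replicate 2 and 0.25 without Glis3KO2 replicate 4. The remaining Smo probe, A_51_P392665, was well above background on 0 arrays.

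**Figure D3:**
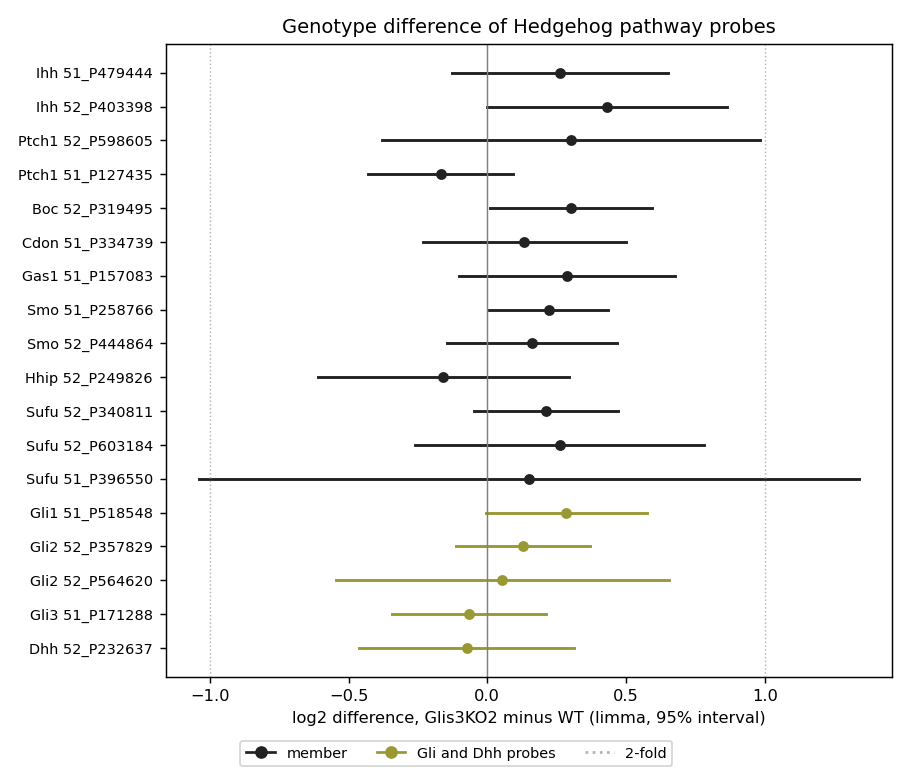
Log2 difference between Glis3KO2 and WT (x axis, positive is higher in Glis3KO2) of each tested probe of the members and of the Gli genes and Dhh (y axis). Points are limma estimates and lines their 95% intervals, not adjusted for the number of probes, and dotted lines mark a 2-fold difference. Only the Sufu probe A_51_P396550 has an interval that reaches past 2-fold.

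Hhip, the ligand-binding inhibitor that Hedgehog signalling itself induces, spread more widely over the Glis3KO2 arrays than over the WT arrays. Its tested probe, A_52_P249826, read -2.52, -2.71, -2.63 and -2.62 on WT and -3.04, -3.26, -2.50 and -2.32 on Glis3KO2 arrays. Glis3KO2 replicates 1 and 2 lay below every WT array and replicates 3 and 4 above every WT array. The SD was 0.08 in WT and 0.44 in Glis3KO2 (n = 4 arrays each), a difference in spread that was not tested.

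The Hhip log2 difference was -0.16 (SE 0.20, 95% interval -0.61 to 0.29, limma adjusted p = 0.873). Glis3KO2 replicates 3 and 4, the arrays above every WT array for Hhip, also stood farthest along the first principal component (39.8 and 59.0, against -26.0 to 0.46 for the others). Leaving both out therefore lowers the Hhip difference by construction. Without them it was -0.53 and still not past the threshold (limma adjusted p = 0.370). Without 1 Glis3KO2 array it was -0.07, 0.001, -0.25 and -0.31, for replicates 1 to 4 in turn. A dimmer Hhip probe, A_51_P416822, was well above background on 3 of 8 arrays and was not tested.

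Sufu, the cytoplasmic brake on Gli factors, has 3 tested probes. The brightest, A_52_P340811, read -0.62, -0.64, -0.39 and -0.51 on WT and -0.49, -0.32, -0.11 and -0.39 on Glis3KO2 arrays. Glis3KO2 replicates 2 and 3 were the highest arrays, replicate 4 exceeded every WT array only narrowly, and replicate 1 lay within the WT range. The log2 difference was 0.21 (SE 0.11, 95% interval -0.05 to 0.47, limma adjusted p = 0.640), and 0.14 without Glis3KO2 replicate 3.

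The second Sufu probe, A_52_P603184, had a log2 difference of 0.26 (SE 0.23, limma adjusted p = 0.790), with Glis3KO2 replicate 1 highest at -2.93 and the other arrays between -4.09 and -3.60. Without that array it was 0.03. A_51_P396550 was above background on 1 WT and 3 Glis3KO2 arrays and spread from -7.27 to -4.63 among the Glis3KO2 arrays alone. Its interval, -1.04 to 1.34 on the log2 scale, was the widest of the tested member probes, and leaving out 1 array gave -0.19 to 0.69.

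Gli1, like Hhip and Ptch1, is transcribed in response to the pathway. Gli1, read by a probe printed 10 times, gave -3.09, -3.01, -3.15 and -2.98 on WT and -2.72, -2.50, -3.05 and -2.83 on Glis3KO2 arrays. Glis3KO2 replicates 1, 2 and 4 were above every WT array and replicate 3 was not. Its log2 difference was 0.28 (SE 0.13, 95% interval -0.01 to 0.57, limma adjusted p = 0.563).

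Glis3KO2 replicates 1 and 2, the arrays with the highest Gli1 values, were those with the lowest Hhip values. Glis3KO2 replicate 4 had the highest Hhip value of all arrays and a Gli1 value above every WT array. The pattern was picked after the values were seen and was not tested. Signs differed among these targets of the pathway. Gli1 had a positive difference, Hhip a negative one and Ptch1 one of each sign, none past the threshold.

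**Figure D4:**
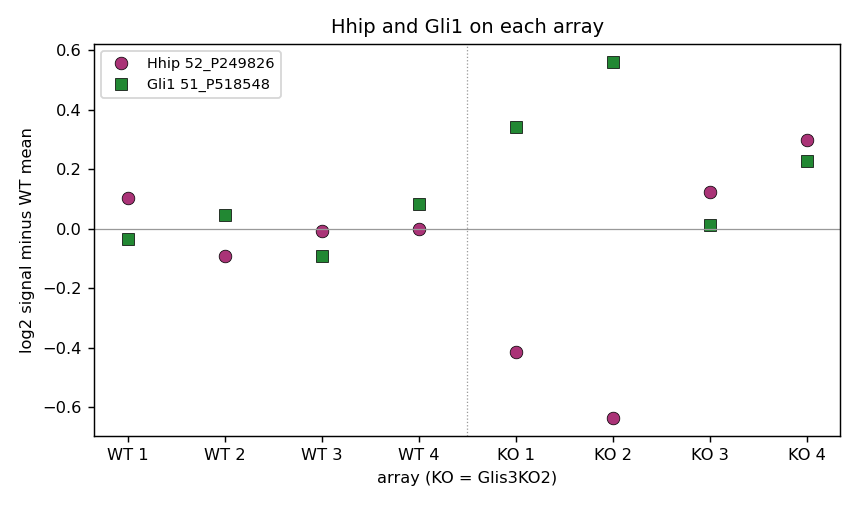
Log2 signal minus the WT mean (y axis) of the tested Hhip probe and the Gli1 probe on each of the 8 arrays (x axis). On Glis3KO2 replicates 1 and 2 the Hhip points are the lowest and the Gli1 points the highest. On Glis3KO2 replicate 4 both are above every WT point of their own probe.

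The rest of the pathway was read from 3 lists, 1 brightest probe per gene. Of 12 tested genes of ligand handling, which covers the acylation, release and spread of Hedgehog proteins, 0 passed the threshold, and the median log2 difference was 0.03. Of 14 genes of receptors, cilium transport and Gli control 0 passed, with a median of 0.04. Of 12 genes described as targets 0 passed, with a median of 0.01.

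At an unadjusted limma p below 0.05 stood 7 of these 38 genes (18.4%, against 8.97% of all tested probes), 4 higher and 3 lower, named here after their values were seen. The higher ones were Lrp2, an endocytic receptor that binds Shh (log2 difference 0.53, SE 0.23), Gpr161, a ciliary receptor that restrains the pathway (0.35, SE 0.13), Evc2, a ciliary partner of Smo (0.22, SE 0.09), and Mycn, a proliferation factor (0.57, SE 0.19). The lower ones were Disp2, a relative of the ligand exporter Disp1 (-0.66, SE 0.19), and the cyclins Ccnd1 (-0.49, SE 0.12) and Ccnd2 (-0.25, SE 0.11). Their limma adjusted p ranged from 0.261 to 0.536. The 18.4% is over the brightest probe of each gene and the 8.97% over every tested probe, so these shares are not like for like. Among 20 genes of the primary cilium 0 passed, 15 had a negative difference and the median was -0.05. Dhh, the remaining mammalian ligand, had a log2 difference of -0.07 (SE 0.17, limma adjusted p = 0.940).

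In whole tissue, fewer cells of a type and less RNA per cell cannot be told apart. Levels of other cell types were read beside the members. Of 12 mesenchymal genes 0 passed the threshold, 10 had a positive difference and the median was 0.13. Their mean log2 level was 4.07 to 4.37 on WT and 4.18 to 4.51 on Glis3KO2 arrays. Of 12 proliferation genes 0 passed, 11 were positive and the median was 0.39, with mean levels of 1.33 to 1.59 on WT and 1.46 to 1.99 on Glis3KO2 arrays. Glis3KO2 replicates 3 and 4 were the highest at 1.99 and 1.92. Of 6 tested intestinal genes, markers of a tissue that makes both ligands, 0 passed, and their levels were -2.28 to -1.97 on WT and -2.39 to -1.79 on Glis3KO2 arrays. Other lists were lower in Glis3KO2. Of 10 endothelial genes 0 passed, 9 were negative and the median was -0.17. Of 9 nerve and glia genes 0 passed, 8 were negative and the median was -0.23, and on Glis3KO2 arrays their mean level was -1.92 to -1.53 against -1.57 to -1.36 on WT. Of 6 genes of the other islet cells 2 fell past the threshold, with a median of -0.72. The 5 tested adipocyte genes, of which 0 passed, had mean levels of -0.27 to 1.59 on WT and -1.41 to 1.64 on Glis3KO2 arrays. Of 8 duct genes and 7 leukocyte genes 0 passed, with medians of 0.04 and -0.02. The part of these shifts in the members' values was not tested.

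Acinar genes, which mark the bulk of the pancreas, were bright: the 7 tested averaged 7.20 to 7.48 on WT and 7.12 to 7.33 on Glis3KO2 arrays. Of 10 beta cell genes 7 fell past the threshold, with a median log2 difference of -1.38, in the same test. The Glis3 probe, at chr19:28054217-28057750 (mm7), was well above background on 3 WT and 0 Glis3KO2 arrays. It read -6.06, -5.41, -5.50 and -5.35 on WT and -6.06, -6.43, -5.93 and -6.15 on Glis3KO2 arrays, was too dim to be tested, and checks the genotype only if it lies in the deleted part. Xist, made in females, was high on 1 WT and 3 Glis3KO2 arrays, so the groups also differed in their mix of sexes, and its part in the members' values was not tested.

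By the size of their unadjusted p, Boc and Smo were the members compared with all other tested genes for likeness of pattern. Nearest to Boc over the 8 arrays, each centred on its own WT mean, were Myh10 (root mean square distance 0.08 on the log2 scale), Fzd2 (0.08) and Akr1b8 (0.08), with log2 differences of 0.30, 0.27 and 0.29. Nearest to Smo were Gnas (0.05) and Capn2 (0.05), with log2 differences of 0.24 and 0.21. The distance includes the genotype difference, so like differences follow from how these genes were picked. None of the 5 passed the threshold, with limma adjusted p between 0.445 and 0.591.

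RefSeq promoter sequences (build GRCm38.p6) were at hand for 7 members, all but Shh and Boc. The GLI consensus GACCACCCA and the core TGGGGGGT of the sequence that Glis factors bind, neither of which contains the other, were searched on both strands in the 250 bases before each start. Of the 7 member promoters 0 held either, as against 0.225% and 1.36% of all 32851 promoters. No match says only that these letters are not in that window.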

How the data were processed

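Total RNA (500 ng per sample) was labelled with Cy3, per the labels' protocols. The deposited values are the linear intensity of each spot, read with Agilent Feature Extraction (9.5.3.1 per the file headers, 9.5 per the submitters' processing notes), detrended and background-subtracted by the authors within each array and not scaled between arrays. The deposited series table held the same 45018 values per array.

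The processed signal was put on a log2 scale and the array's 75th percentile, taken over 43379 non-control spots, was subtracted. Outlier spots were left out (56 to 130 per array) and spots of a probe averaged. No spot was saturated. Probes well above background on at least 4 of 8 arrays, whatever their genotype, were tested with limma 3.58.1 in R 4.3.3 (lmFit, eBayes, genotype as sole term, 2-sided, adjusted p 0.05). The fit was tested on simulated data. Between 76.1% and 86.5% of probes per array were well above background. Scaling would hide a change shared by most genes. Other genes took symbols through RefSeq accessions (22951 of 25510 matched).

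Members, lists, alternatives and the naming rule were chosen with earlier results of these data known. The rule named every member, Gli1, Glis3, pathway genes past the threshold, and for the 2 members with the smallest p the 3 genes of nearest pattern. Of the genes it named, 2 are not reported here, and 1 of them is left out of the pathway list. Python 3.11.15 drew the figures.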

Additional observations from a re-analysis of the deposited data

How the results depend on the processing

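No member probe passed the threshold under any alternative run, and the median log2 difference of the members stayed between 0.13 and 0.27. Across all tested probes 85 were called (27 higher), 51 without a filter on dim probes, 142 with trend and robust eBayes, 35 to 96 without 1 array (35 to 39 without WT replicate 1, 3 or 4 or Glis3KO2 replicate 3 or 4), and 11 without Glis3KO2 replicates 3 and 4. With the replicate number as a block it was 15. After each probe's group mean was subtracted, the correlation of same-numbered WT and Glis3KO2 arrays was 0.13, 0.09, 0.24 and -0.04. WT replicates 1, 2 and 3 correlated best with the Glis3KO2 array of their own number, and WT replicate 4 did not. The numbers were not taken as pairs in the main test, and the block changed no call among members. With the block the unadjusted limma p of Ptch1 A_52_P598605 was 0.043 (limma adjusted p = 0.538), against 0.344 without it. Signs of uncalled differences turned with normexp background for Ihh (-0.042 by A_51_P479444 and -0.045 by A_52_P403398), Smo A_52_P444864 (-0.023) and Sufu A_51_P396550 (-0.088). Sufu A_51_P396550 also turned without Glis3KO2 replicates 3 and 4 (-0.36) and without 1 array (-0.19 to 0.69), and Hhip A_52_P249826 without 1 array (-0.31 to 0.0013). The normexp setting took the mean spot signal and the median background in place of the processed signal. Its offset shrinks differences of dim probes by construction, and what turned the signs was not tested. Signal over background limits Shh, the dimmer Boc, Smo and Hhip probes, and Sufu A_51_P396550.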
